A study of Mus musculus with 6 samples.

Results

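The CCAAT/enhancer-binding proteins (C/EBPs) were examined in RNA-seq of leukemia stem cells (LSCs) from mouse acute myeloid leukemia (AML), as the 6 genes Cebpa, Cebpb, Cebpd, Cebpe, Cebpg and Cebpz of the 55367 genes in the deposited table. The members were selected on the family name, with their difference between Piezo1cKO and WT libraries already known, so that difference is described below with its standard error (SE) and without a p-value. The study asked what loss of Piezo1, a mechanosensitive ion channel, does to LSCs, and compared 3 WT with 3 Piezo1cKO libraries. Piezo1cKO cells came from Mx1-cre; Piezo1fl/fl mice and WT cells from Piezo1fl/fl littermates, both aged 8 to 10 weeks and both injected with pIpC, an inducer of the interferon response that switches on the Mx1 promoter driving the Cre. WT cells therefore also carried the floxed allele and the pIpC exposure but no Cre, and Mx1-cre acts in many interferon-responsive cells and not only in blood. Lineage-negative bone marrow cells of these donors were transduced with a retrovirus for the MLL-AF9 fusion and YFP and transplanted into irradiated recipients, from whose bone marrow LSCs were sorted after depletion of lineage-positive cells and staining for c-Kit, Sca-1, CD34 and CD16/32. The labels do not say whether the 3 libraries of a group came from separate mice or from which round of transplantation they were sorted, and p-values below measure only the spread between these libraries.

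C/EBP proteins are basic leucine zipper (bZIP) transcription factors that bind DNA as dimers, with each other or with relatives such as ATF4. In the myeloid lineage Cebpa is needed to form granulocyte-monocyte progenitors and is recurrently mutated in AML, Cebpb drives granulocyte production in infection and stress, and Cebpe drives the last steps of neutrophil maturation, including the secondary granules. Cebpd is an inflammation-induced member, Cebpg is a short member without an activation domain that pairs with other bZIP proteins such as ATF4, and Cebpz shares the name only, being a nucleolar CCAAT-binding protein without a leucine zipper.

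The sequences before the start sites are shown for Cebpa, Cebpb and Cebpg, the 3 members with an entry among the RefSeq promoters used here (GRCm38.p6). They are also the 3 members whose groups of libraries did not overlap, as held for 66.6% of all genes tested. Each run is the 250 bases upstream of the start, 5′ to 3′ on the gene's strand. Capitals mark matches, on either strand, to TTGCG (a core of C/EBP sites), TGACG (a core of cAMP response elements, bound by CREB and ATF proteins), CCAAT (the CCAAT box) or TATAAA (the TATA box).
Cebpa, chr7:35119043-35119292, plus strand: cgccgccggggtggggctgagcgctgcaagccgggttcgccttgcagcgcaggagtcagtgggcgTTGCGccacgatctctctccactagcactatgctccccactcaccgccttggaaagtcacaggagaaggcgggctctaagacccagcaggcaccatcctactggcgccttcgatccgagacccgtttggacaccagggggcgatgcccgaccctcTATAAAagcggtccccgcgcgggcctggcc
Cebpb, chr2:167688665-167688914, plus strand: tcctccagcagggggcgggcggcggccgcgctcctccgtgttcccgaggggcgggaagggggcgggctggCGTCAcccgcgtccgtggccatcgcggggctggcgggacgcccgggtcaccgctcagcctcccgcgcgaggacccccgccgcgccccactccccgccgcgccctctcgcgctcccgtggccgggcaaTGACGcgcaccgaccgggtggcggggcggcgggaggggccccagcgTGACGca
Cebpg, chr7:35056567-35056816, minus strand: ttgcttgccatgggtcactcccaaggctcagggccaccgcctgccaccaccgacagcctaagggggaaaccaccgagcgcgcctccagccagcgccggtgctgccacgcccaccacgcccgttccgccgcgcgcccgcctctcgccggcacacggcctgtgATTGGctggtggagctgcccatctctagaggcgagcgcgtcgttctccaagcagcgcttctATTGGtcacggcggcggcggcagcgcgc
The Cebpa window held 1 C/EBP core, 185 to 181 bases upstream, and 1 TATA box at 30 to 25 bases. The Cebpb window held 3 TGACG cores, at 180 to 176 bases on the other strand and at 53 to 49 and 7 to 3 bases on its own, and none of the other motifs. The Cebpg window held 2 CCAAT boxes, at 89 to 85 and 28 to 24 bases, both on the other strand. Of 32851 RefSeq windows of this length, 14.5% held TTGCG, 17.8% TGACG, 33.8% CCAAT and 12.4% TATAAA.

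The deposited values are on a log2 scale in the form of a regularized log, which shrinks differences of genes with few reads. The shrinkage could be undone to whole reads, and each member is given below as recovered reads, as reads normalized for library size (mean ± SD, n = 3 libraries per group) and as the difference of Piezo1cKO minus WT on both scales. Libraries held 14112074 to 15483544 recovered reads. Piezo1 itself had 104, 92 and 113 reads in the WT libraries and 35, 58 and 45 in the Piezo1cKO libraries, so reads at the targeted gene remained at 45.9% of WT. Kit, Cd34, Fcgr3, Mpo, Hoxa9 and Meis1, which mark these progenitors, were present in all 6 libraries.

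Cebpb, the stress-responsive activator, had 976, 932 and 999 reads in the WT libraries and 31, 36 and 35 in the Piezo1cKO libraries. No Piezo1cKO library came near any WT library. Its normalized reads were 949.6 ± 10.5 in WT and 34.4 ± 1.73 in Piezo1cKO LSCs, which is 3.62% of WT or 27.6-fold lower. The log2 fold change was -2.37 (SE 0.04) on the deposited scale, where 5 genes of the table had a lower value, and -4.78 (SE 0.15) on recovered reads. The 3 TGACG cores shown above lie in the window before this gene. Cebpb mRNA is translated from several start codons into activating and inhibitory proteins, which read counts cannot separate.

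Cebpa, the progenitor factor, differed in the other direction. It had 121, 121 and 133 reads in WT and 270, 287 and 279 in Piezo1cKO libraries, and every Piezo1cKO library lay above every WT library. Normalized reads were 122 ± 5.28 and 282 ± 2.07, or 2.30-fold higher in Piezo1cKO LSCs. The log2 fold change was 0.53 (SE 0.04) on the deposited scale and 1.19 (SE 0.09) on recovered reads.

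Cebpg, the dimer partner without an activation domain, had 396, 360 and 366 reads in WT and 143, 138 and 169 in Piezo1cKO libraries, again without overlap. Normalized reads were 367 ± 16.3 and 152 ± 18.9, which is 41.5% of WT. Its log2 fold change was -0.61 (SE 0.04) on the deposited scale and -1.29 (SE 0.10) on recovered reads. Cebpg and Cebpa are neighbours on chromosome 7, their starts 62.7 kb apart on opposite strands, and they differed in opposite directions.

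Cebpe, the late granulocyte factor, was the member with the most reads, 6812, 6951 and 7095 in WT and 6658, 7798 and 7753 in Piezo1cKO libraries. Normalized reads were 6817 ± 203 and 7482 ± 478, or 109.8% of WT, and Piezo1cKO replicate 1, at 6955, lay within the WT range of 6609.7 to 7015. The log2 fold change was 0.10 (SE 0.03) on the deposited scale and 0.12 (SE 0.04) on recovered reads. It ranged from 0.07 to 0.13 when single libraries were left out.

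Cebpd, the inflammation-induced member, had 1008, 1094 and 1203 reads in WT and 767, 1110 and 1049 in Piezo1cKO libraries, with overlapping groups. Piezo1cKO replicate 1 was the lowest library. Normalized reads were 1079.8 ± 92.1 and 984 ± 158 (91.1% of WT), and the log2 fold change was -0.09 (SE 0.06) on the deposited scale and -0.15 (SE 0.09) on recovered reads. The deposited value rested on the lowest library, since it was -0.00 without Piezo1cKO replicate 1 and reached -0.14 when other libraries were left out.

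Cebpz, the nucleolar protein, had 846, 724 and 754 reads in WT and 721, 698 and 724 in Piezo1cKO libraries, and the groups overlapped. Normalized reads were 759 ± 53.7 and 723 ± 38.2 (95.3% of WT), with a log2 fold change of -0.04 (SE 0.04) on the deposited scale and -0.08 (SE 0.06) on recovered reads. The family thus held 3 members whose groups did not overlap, where 66.6% of all genes tested did not. The other 3 had group means within 10 percent of each other.

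**Figure D1:**
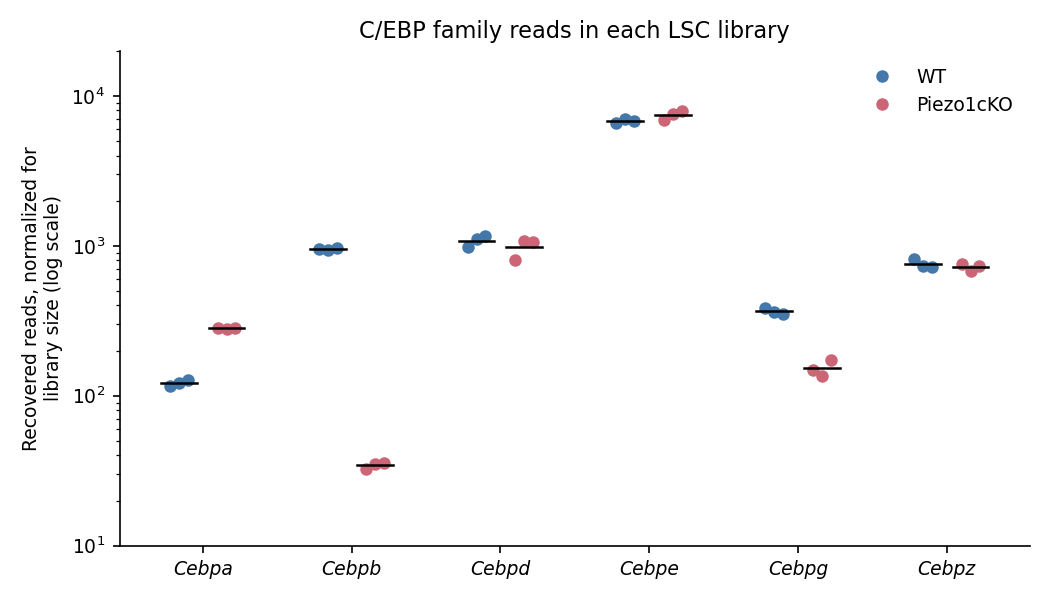
Reads of the 6 C/EBP genes in each library, normalized for library size, on a log axis. Points are the 3 WT (blue) and 3 Piezo1cKO (red) libraries and lines the group means. Cebpb had 949.6 reads on average in WT and 34.4 in Piezo1cKO libraries, Cebpg was lower and Cebpa higher without overlap, and the points of Cebpd, Cebpe and Cebpz overlap.

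All 6 members passed the filter on low values, a mean deposited value of at least 1. A limma fit across 16746 genes (Benjamini-Hochberg adjusted p under 0.05) called 4 of them, against 63.0% of all genes tested. These were 2 higher (Cebpa and Cebpe, where 31.6% of genes were called higher) and 2 lower (Cebpb and Cebpg, where 31.4% were called lower). The call of Cebpe was lost without WT replicate 1, Piezo1cKO replicate 2 or Piezo1cKO replicate 3. Of all called genes 50.2% were higher, and 60.5% when library medians were made equal. The study's threshold for a differentially expressed gene (DEG) asks for an absolute log2 fold change over 1 as well. The study set it on fold changes from counts, whereas the deposited values are shrunken, so DEGs on the deposited scale are not those of the study. On that scale 1 member (Cebpb) passed, where 0.818% of genes were DEGs. On recovered reads 4 members were called, where 63.0% of 17352 genes were, and 3 (Cebpa, Cebpb and Cebpg) were DEGs, where 24.9% of genes were. Deposited values of the groups did not overlap for 3 members and for 66.6% of genes. The members were chosen on this contrast, so these counts describe them and support nothing further.

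**Figure D2:**
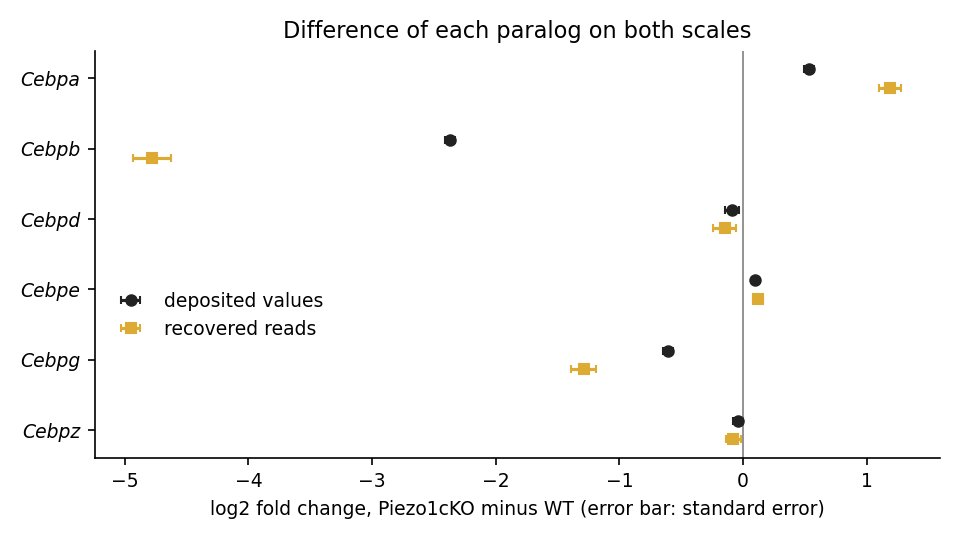
Log2 fold change of each member, Piezo1cKO minus WT, with its standard error, from the deposited values (black circles) and from recovered reads (yellow squares). Cebpb lies at -2.37 and -4.78 and Cebpa at 0.53 and 1.19, and Cebpd, Cebpe and Cebpz lie close to 0 on both scales.

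Levels of the paralogs were compared with each other as TPM, which scales reads for exon length and for the library's total. In WT LSCs the order was Cebpe at 1207 ± 32.5 TPM, Cebpb at 139 ± 1.88, Cebpd at 63.3 ± 5.36, Cebpz at 35.8 ± 2.59, Cebpg at 14.3 ± 0.650 and Cebpa at 10.2 ± 0.443. In Piezo1cKO LSCs the order was Cebpe at 1344 ± 79.4 TPM, Cebpd at 58.5 ± 9.10, Cebpz at 34.6 ± 1.99, Cebpa at 23.8 ± 0.248, Cebpg at 6.03 ± 0.749 and Cebpb at 5.09 ± 0.230. The ranges of neighbours in either order did not overlap, though those of Cebpg and Cebpb in Piezo1cKO LSCs came close, at 5.31 to 6.81 and 4.83 to 5.27 TPM. Cebpb thus moved from the second place to the last and Cebpa from the last to the fourth.

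Summed over the 6 genes, the family held 1432, 1497 and 1478 TPM in WT libraries and 1377, 1490.5 and 1549 in Piezo1cKO libraries, with overlapping groups. Cebpe made up most of it, 82.1% ± 0.432 in WT and 91.3% ± 0.0573 in Piezo1cKO LSCs. The share of Cebpb was 9.45% ± 0.275 in WT and 0.346% ± 0.00554 in Piezo1cKO LSCs, and that of Cebpa was 0.695% ± 0.0245 and 1.62% ± 0.105. Within a library, Cebpb exceeded Cebpa 14.1, 13.5 and 13.2-fold in WT, whereas Cebpa exceeded Cebpb 4.97, 4.55 and 4.55-fold in Piezo1cKO libraries. In such bulk libraries, fewer cells expressing a gene and less RNA per cell cannot be told apart.

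**Figure D3:**
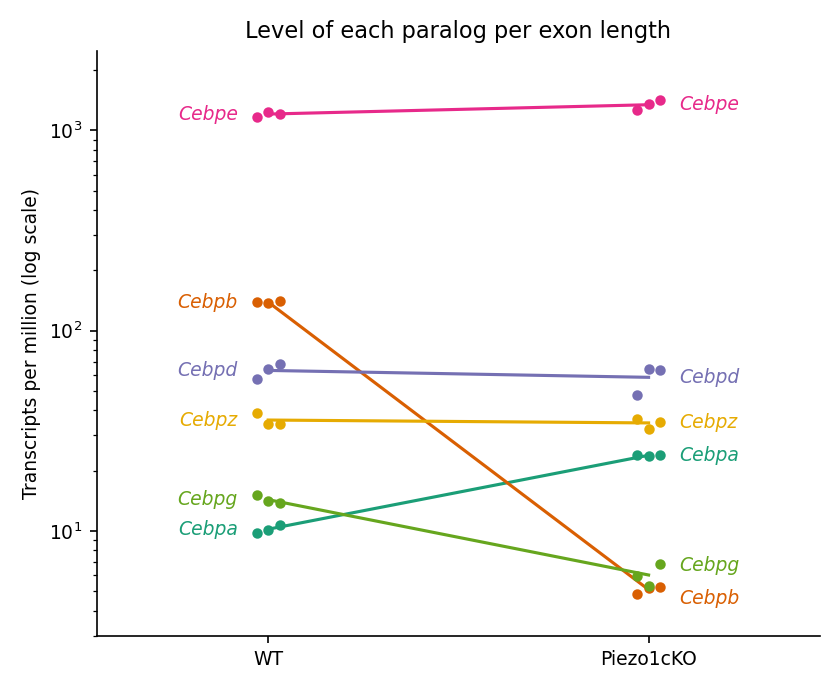
Level of each paralog in TPM on a log axis, with a point per library and a line between the group means. The lines of Cebpb (139 to 5.09 TPM) and Cebpa (10.2 to 23.8 TPM) cross, and Cebpe stays the highest in both groups.

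The library kit does not mark strand, so a gene and an overlapping partner on the other strand can share reads. Cebpb shares 312 exon bases (20.7% of its exons) with Tmem189, whose normalized reads were 43.5 ± 4.37 in WT and 88.4 ± 4.89 in Piezo1cKO LSCs. Cebpd shares 562 exon bases with Spidr, at 842 ± 40.3 and 743 ± 34.8 normalized reads. Cebpz shares 171 bases (3.67%) with Cebpzos, which had 236, 172 and 230 reads in WT and 230, 261 and 238 in Piezo1cKO libraries, and Cebpa shares 51 bases (1.93%) with the antisense gene Gm45091. Cebpg shares 73 exon bases (1.30%) with Gm44836, on its own strand, and 4 with the antisense gene Gm45095. Tmem189 was thus higher where Cebpb was lower, and how many reads of each fell in the shared bases was not tested.

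Of 15 bZIP dimer partners and relatives of the family, 7 were lower and 7 higher by limma. Over all genes tested 31.4% were called lower and 31.6% higher. None of the list was a DEG on the deposited scale. On recovered reads 2 were DEGs lower and 2 higher, where 24.9% of all genes were DEGs. Its median log2 fold change was -0.06 against 0.00 over all genes. The median was 0.00 without Piezo1cKO replicate 1. Ddit3, the C/EBP-homologous protein of the stress response, had the lowest log2 fold change of the list on the deposited scale, with 325, 282 and 285 reads in WT and 78, 80 and 79 in Piezo1cKO libraries (-0.77, SE 0.04, limma adjusted p = 5.68e-12). Atf4, the master factor of the amino acid response and a partner of Cebpb and Cebpg, had normalized reads of 1128 ± 44.5 and 704 ± 5.70 (limma adjusted p = 1.27e-09). Atf3, a stress-induced repressor, had 26, 25 and 32 reads in WT and none in Piezo1cKO libraries, at least 9.03-fold lower against a floor of 3 reads per library, and was the lowest of the list on recovered reads. Atf5, Atf2 and Nfil3 were lower as well, at 50.9%, 66.2% and 60.4% of WT. The clock-output factor Dbp was higher, at 306% of WT, and the AP-1 genes Fos and Jun were at 130.3% and 115%.

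Among 14 genes that regulate C/EBP genes or proteins, 7 were lower and 4 higher, against 31.4% and 31.6% of all genes. Their median was -0.06. The Tribbles genes differed from each other. Trib3 had 1549, 1565 and 1649 reads in WT and 14, 12 and 26 in Piezo1cKO libraries, with the lowest log2 fold change of all genes tested on the deposited scale (-3.17, SE 0.04), though not on recovered reads (-6.53, SE 0.24). Trib1, which directs C/EBPα protein to degradation by the ligase Cop1, was at 115% of WT (log2 fold change 0.11, SE 0.04, limma adjusted p = 0.0205), and Cop1 itself did not pass the threshold (log2 fold change -0.02, SE 0.04, limma adjusted p = 0.693). Trib2 had 11, 6 and 8 reads in WT and none in Piezo1cKO libraries, at least 2.71-fold lower. Of transcription factors that act on Cebpa, Runx1 was higher (135% of WT), Spi1 was lower (78.0%), Gfi1 was lower (114 ± 9.97 normalized reads in WT and 85.9 ± 4.13 in Piezo1cKO LSCs), and Hoxa9 did not pass the threshold, with a log2 fold change of 0.00 (SE 0.03).

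Known target genes of the members were counted in 3 lists. Of 11 granulocyte-monocyte progenitor targets, which Cebpa and Spi1 control, 6 were lower and 3 higher, against 31.4% and 31.6% of all genes. Their median was -0.27. The primary granule genes Elane, Mpo and Prtn3 were at 46.9%, 54.5% and 54.5% of WT, and Csf3r, the G-CSF receptor, at 66.9%, while Cebpa reads were 2.30-fold higher. Csf2ra, Csf2rb and Lyz2 were higher, at 118%, 114% and 119%.

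Of 13 secondary granule and late neutrophil targets, the genes Cebpe is known for, 10 were lower and 1 higher, with a median of -0.40. On the deposited scale DEGs numbered 6 lower (Ngp, Fcnb, Camp, S100a9, Chil3 and S100a8) and 1 higher (Mmp8). Over all genes tested 31.4% were called lower, 31.6% higher and 0.818% were DEGs. On recovered reads 9 were DEGs lower and 1 higher, where 24.9% of all genes were DEGs. Ngp had 1321, 1295 and 1292 reads in WT and 145, 130 and 138 in Piezo1cKO libraries (10.9% of WT), while Camp was at 14.6% and S100a9 at 2.33%. Mmp8, a collagenase of the same granules, had 39, 42 and 49 reads in WT and 623, 639 and 616 in Piezo1cKO libraries, or 14.9-fold higher. Cebpe itself was at 109.8% of WT, so reads of most of these genes were lower beside a Cebpe level that was not. Summed reads of 6 mature neutrophil markers, of which Mmp8, Cd177 and Ltf stand in both lists, ran from 1433 to 1529 in WT and from 2083 to 2178 in Piezo1cKO libraries. Within that sum Mmp8 carried the difference, Cd177 had 1394 ± 53.0 normalized reads in WT and 1454 ± 62.9 in Piezo1cKO LSCs, and Cxcr2 had 29.7 ± 3.76 and 37.5 ± 3.88. Retnlg was at 0 in all libraries and Ly6g had at most 1 read. Their part in the differences of the granule genes was not tested.

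Of 15 inflammatory targets of Cebpb and Cebpd, 10 passed the filter. Of these 6 were lower and 3 higher, against 31.4% and 31.6% of all genes tested, with a median of -0.11. Cd14, the co-receptor for bacterial lipopolysaccharide, had 6117, 6082 and 6702 reads in WT and 405, 503 and 410 in Piezo1cKO libraries (7.18% of WT). Socs3, a feedback inhibitor of cytokine signalling, had 505, 470 and 587 and then 10, 9 and 8 reads (1.79% of WT). The chemokine gene Ccl3 was 3.35-fold higher in Piezo1cKO LSCs. Il1b and Nos2 were listed at 0 in all libraries.

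All 18 amino acid response targets of ATF4 and C/EBP proteins were lower, against 31.4% of all genes tested. Of the 18, 9 were DEGs on the deposited scale, against 0.818% of all genes. Their median was -0.93 on the deposited scale and -1.99 on recovered reads. This list was written with earlier results known and its members were prominent among them, so its direction is not independent evidence. The 5 with the largest differences on the deposited scale were Nupr1, Asns, Slc7a11, Sesn2 and Chac1. Nupr1, a stress-induced chromatin protein, had 752, 686 and 751 reads in WT and 0, 1 and 1 in Piezo1cKO libraries, at least 238-fold lower. Asns, which makes asparagine, had 3495, 3411 and 3593 and then 368, 347 and 309 reads (10.1% of WT). Slc7a11, the cystine importer, was at 4.11% of WT, Sesn2 at 13.9% and Chac1, which degrades glutathione, at 1.46%. Vldlr and Cth, with few reads in WT and none in Piezo1cKO libraries, were at least 16.6-fold and 15.3-fold lower, beyond Asns and Sesn2.

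Genes of this response often carry a composite element in which a C/EBP protein and ATF4 bind side by side, TGATGNAA. Of 16 list genes with a RefSeq window, 6 held a match within 250 bases upstream of the start, and 3.45% of the 32851 windows did. A gene counted once if any of its windows matched, while the share is of single windows. The list holds known targets of this response, so more matches were to be expected beforehand and support nothing further. A site of each is shown because they carry the joint motif of Cebpb, Cebpg and Atf4, each 30 bases on the strand of the match with the element in capitals.
Asns, chr6:7693214-7693243, minus strand: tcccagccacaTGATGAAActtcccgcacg
Chac1, chr2:119351038-119351067, minus strand: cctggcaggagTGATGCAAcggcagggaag
Slc7a11, chr3:50443661-50443690, minus strand: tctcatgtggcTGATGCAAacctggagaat
Nupr1, chr7:126625562-126625591, plus strand: caagccctgtcTGATGCAAtctggcccttt
Pycr1, chr11:120643833-120643862, minus strand: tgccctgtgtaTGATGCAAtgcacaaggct
Vldlr, chr19:27216809-27216838, minus strand: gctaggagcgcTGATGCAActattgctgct
The element began 23 bases before the start of Asns, 193 before Chac1, 66 before Slc7a11, 110 before Nupr1, 103 before Pycr1 and 200 before Vldlr. Slc7a11 held a further match on the other strand. A match to these letters is a description and not a measured binding site. None of the windows of Cebpa, Cebpb and Cebpg held the composite element.

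**Figure D4:**
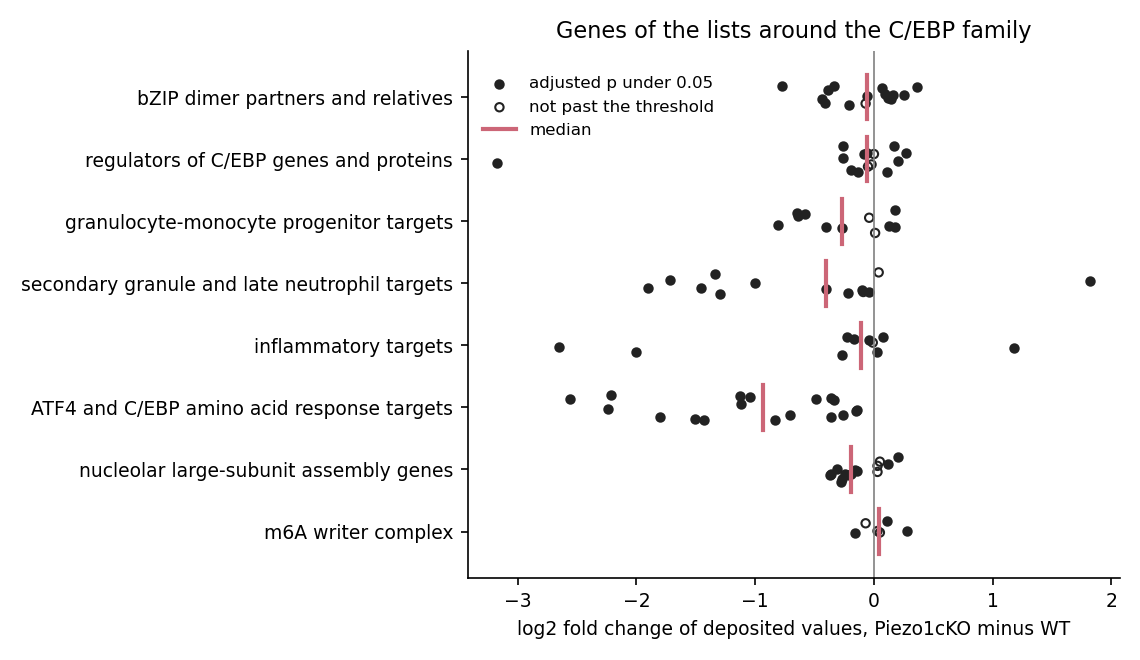
Log2 fold change on the deposited scale, Piezo1cKO minus WT, of the genes of 8 lists around the family, with filled points past an adjusted p of 0.05 by limma and red bars at each list's median. The amino acid response list lies wholly below 0 with a median of -0.93, and the secondary granule list runs from -1.90 to 1.82.

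For Cebpz, genes of the nucleolar large-subunit assembly, in which Cebpz takes part, and of the m6A writer complex were taken. Of that complex, Cebpz recruits Mettl3 to promoters in AML cells. Of 15 nucleolar genes 10 were lower and 2 (Wdr12 and Noc2l) higher, against 31.4% and 31.6% of all genes tested. Their median was -0.19, and none was a DEG. Without WT replicate 1 or Piezo1cKO replicate 2, 1 nucleolar gene was called higher. Within the nucleolar list Noc2l was at 118% of WT, and Noc3l and Rrs1 at 67.5% and 69.1%, beside Cebpz at 95.3%. Of 6 m6A writer genes 1 (Mettl3, 82.0% of WT) was lower and 2 (Wtap, 129%, and Virma, 118%) were higher, with a median of 0.04. The shares over all genes were again 31.4% lower and 31.6% higher. Without WT replicate 2 or 3, or Piezo1cKO replicate 1 or 2, 1 writer gene was called higher.

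Among 72 further genes that start within 500 kb of a member, 19 were lower and 19 higher by limma, with a median of -0.00. Over all genes tested 31.4% were called lower and 31.6% higher. Around Cebpb 2 of 12 genes were lower and 4 higher. With library medians made equal, 16 of the 72 genes were lower and 26 higher. On recovered reads 4 of the 72 were DEGs lower and 5 higher, where 24.9% of all genes were DEGs. The only DEG of the 72 on the deposited scale was Ptpn1, a tyrosine phosphatase 243 kb downstream of Cebpb, named after its value was seen, with normalized reads of 3668 ± 248 in WT and 906 ± 48.9 in Piezo1cKO LSCs. Around Cebpa and Cebpg, Cep89 (129% of WT) and Nudt19 (113%) were higher, Faap24 (86.1%) and Ankrd27 (88.8%) lower, and Pepd and Gpatch1 did not pass the threshold, with log2 fold changes of -0.01 (SE 0.04) and 0.07 (SE 0.03).

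**Figure D5:**
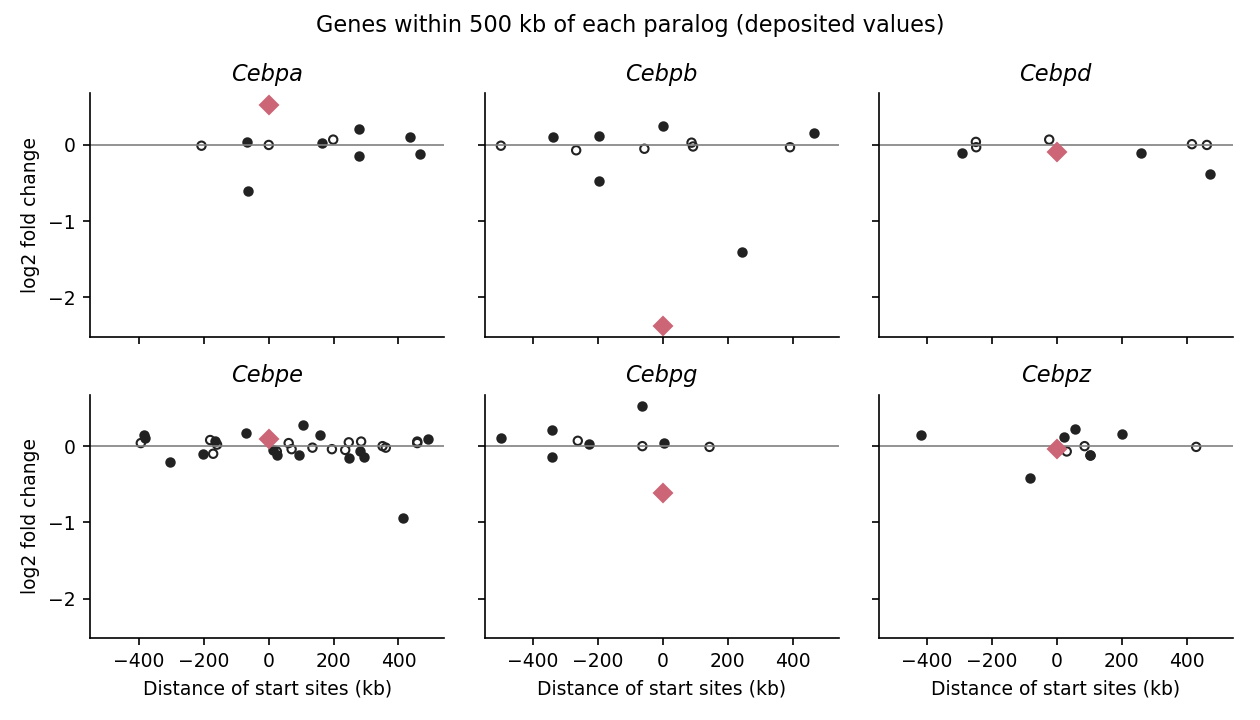
Log2 fold change on the deposited scale of genes within 500 kb of each member against the distance between start sites in kb, positive downstream. Filled points passed an adjusted p of 0.05 by limma, open points did not, and red diamonds are the member. Ptpn1 at -1.41 is the lowest point near Cebpb, and in the panels of Cebpa and Cebpg each gene also appears among the other's neighbours.

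By the smallest distance between centred deposited values over the 6 libraries, the pattern of Cebpb was closest to that of Mecom (0.14), Eif3b (0.16) and Asns (0.20) among 10926 genes. These values are shrunken, and the closeness did not hold on recovered reads. There the log2 fold change was -4.78 for Cebpb, -9.77 for Mecom, -3.13 for Eif3b and -3.33 for Asns. Mecom, which encodes the transcription factor EVI1, had 712, 574 and 654 reads in WT and 0, 1 and 0 in Piezo1cKO libraries. Eif3b, a subunit of a translation initiation factor, was at 11.6% of WT.

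Summed marker levels of several other cell types differed between the groups. Summed normalized reads of 6 mast cell and basophil markers were 4216 to 4424 in WT and 12173 to 12267 in Piezo1cKO libraries, with Cpa3 8.85-fold and Gata2 1.82-fold higher. Those of 5 dendritic cell markers were 652 to 693 and 1703 to 1747, nearly all of it Flt3 (648 ± 23.9 and 1606 ± 43.2), a receptor also of progenitors. The others had fewer reads and were higher as well, Xcr1 at 348% and Cd209a at 275% of WT. Clec9a was at least 5.11-fold and Siglech at least 2.60-fold higher. NK cell markers summed to 54.3 to 78.7 and 249.7 to 282 normalized reads, mostly Klrk1 (62.6 ± 13.9 and 226 ± 11.4). Klrb1c had no reads in WT and 32, 38 and 52 in Piezo1cKO libraries. Ncr1 had at most 2 reads and Eomes at most 4. Macrophage markers summed to 911 to 989 and 926 to 1049, nearly all of it Adgre1 and Vcam1, while C1qc had no reads in WT and 21, 29 and 15 in Piezo1cKO libraries, C1qb had 0, 2 and 0 and then 6, 17 and 10, and C1qa was at 0. Megakaryocyte markers summed to 261 to 318 and 267 to 303, made up of Pf4 at 9.40% of WT, Ppbp at least 16.9-fold lower and Itga2b at 199% of WT. Erythroid markers summed to 88.3 to 108 and 25.4 to 34.1, and T cell markers to 5.77 to 10.7 and 0 to 1.95 with Cd8a at 0. The leukemic progenitor markers summed to 294921 to 311733 in WT and 172878 to 180116 in Piezo1cKO libraries, nearly all of it Mpo, while Kit and Cd34, which were stained for in the sort, were at 136% and 156% of WT. Fcgr3 was at 98.5% and Hoxa9 at 100.4% of WT, and Meis1 was lower without overlap, at 86.8%. The part of these cell type markers in the C/EBP differences was not tested.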

How the data were processed

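RNA-seq of 3 WT and 3 Piezo1cKO LSC libraries was used. Per the study's methods and the labels, read trimming used fastp 0.20.1, mapping to GRCm38 used HISAT2 2.2.1, counting used featureCounts 2.0.1 and normalization by the authors used DESeq2 1.28.1. The deposited table holds log2 values in the form of a regularized log, a transform the sources do not name, with 26402 genes from -1.97 to 18.06 and 28965 at 0 in all libraries. They were used without a pseudocount.

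Genes whose mean value reached 1 were fitted with limma (version 3.58.1, lmFit and eBayes with a trend, R version 4.3.3), with Benjamini-Hochberg adjustment over all 16746. DEGs were called at an adjusted p below 0.05 with a log2 fold change beyond 1 in either direction. The study's count model was not used, because the table holds no counts. The regularized log was undone by fitting size factors and shrinkage so that values became whole reads: 90.5% of values of genes with a mean of at least 1 read were within 0.1 of a whole number, and 30 of 36 member values were, with Cebpe the furthest from whole. All were rounded. Recovered reads of 17352 genes with at least 10 in total were fitted with limma-voom. Both steps were tested on simulated data. Normalized reads are recovered reads divided by the size factors, and TPM used exon length from GENCODE M21. Where every library of a group had at most 3 reads, the fold used 3 reads in their place and is given as "at least". Libraries of a group differed by more than sampling noise (chi-square per degree of freedom 1.53 to 2.66). Each was counted as 1 replicate, though this spread cannot tell separate mice from separate preparations of the same cells. Intervals of counting error were not used. Exact permutation of 3 against 3 cannot go below p = 0.1.

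The members, the 8 lists and the 10 marker lists were chosen with earlier results of these data known. The result of 1 marker list is not reported here. The text names all members, any gene of a list of up to 15 and the 5 largest differences of the longer list. From that longer list, Cth and further genes with a composite element were added after values were seen. Also named are the 3 genes closest to a member with an absolute log2 fold change over 1, and protein-coding neighbours of Cebpa and Cebpg. Piezo1 and genes sharing exon bases with a member are named too. Promoter sequences are RefSeq's on GRCm38.p6, and 3 of 6 members had one. Alternatives were filters, scalings, a replicate block, the variance trend, single libraries left out and recovered reads.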

Additional observations from a re-analysis of the deposited data

How the results depend on the processing

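Cebpa, Cebpb and Cebpg kept their direction and their side of the adjusted p threshold under every alternative run, while Cebpa and Cebpg passed the DEG threshold on recovered reads only, and no result of the family, lists or neighbours reversed. The members were chosen on this contrast, so their calls describe the processing and support nothing further. Cebpe (0.10) no longer passed without a variance trend (0.10), after quantile normalization (0.07), or without WT replicate 1, Piezo1cKO replicate 2 or Piezo1cKO replicate 3, where single libraries left out gave 0.07 to 0.13. Calls of genes were split 5298 higher to 5258 lower (50.2% higher), and 6450 to 4214 (60.5% higher) with library medians made equal, which moved the median of all genes by 0.02.

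Same-numbered WT and Piezo1cKO libraries had correlations of 0.20, 0.16 and 0.07 of their deviations from the group means, so the numbers were not taken to pair libraries, although every library correlated best with its own number, a hint from the data and not the design. With a replicate block 5542 genes were called higher and 5513 lower, and Cebpd came past the threshold at -0.09 on the deposited scale and at -0.15 on recovered reads. The block changed no other call of a member on the deposited scale.

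On recovered reads, which undo the shrinkage, DEGs numbered 4317 with TMM scaling, 4356 with TMM scaling and a replicate block and 4333 with library totals, against 137. The medians of the lists moved with them, in that order of settings: granulocyte-monocyte progenitor targets to -0.38, -0.38 and -0.35, secondary granule targets to -2.78, -2.78 and -2.75, inflammatory targets to -1.08, -1.05 and -1.05, amino acid response targets to -1.99, -1.98 and -1.96, and nucleolar genes to -0.28, -0.28 and -0.25. The bZIP relatives and the regulators moved to -0.10 with TMM scaling with or without the block, and the m6A writers to 0.07 with library totals, with 1 higher under TMM scaling. With library medians made equal, the median was -0.03 for regulators, -0.08 for inflammatory targets and -0.17 for nucleolar genes, and with quantile normalization -0.30 for progenitor targets, -0.12 for inflammatory targets, -0.17 for nucleolar genes and 0.07 for m6A writers. A mean of at least 5, which tests fewer genes, gave -1.15 for secondary granule, -0.25 for inflammatory (1 higher) and -1.08 for amino acid targets, and no filter gave -0.03 for inflammatory targets. With single libraries left out, the bZIP median ran from -0.06 to 0.00, the inflammatory median from -0.11 to -0.10, nucleolar genes called higher from 1 to 3 and m6A writers called higher from 1 to 2. The cause of these moves was not tested.

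With the length of the longest transcript in place of all exons, Cebpa stood at 7.75 TPM in WT and 18.0 in Piezo1cKO LSCs, Cebpb at 105 and 3.82, Cebpd at 47.9 and 43.9, Cebpe at 913 and 1008, Cebpz at 31.0 and 29.7, and Cebpg at 12.9 and 5.40, in the same order within each group. Depth limits genes with few reads, such as Trib2 and Atf3, to lower bounds.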
